A study of Mus musculus with 9 samples.

Results

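Macrophages are phagocytes that engulf debris, microbes and dying cells, digest them in lysosomes and present or release signals to other cells. In skin they lie mainly in the dermis, where many carry the scavenger and mannose receptors Cd163 and Mrc1. The resident phagocyte of the epidermis is the Langerhans cell, which shares part of the macrophage programme, including the growth factor receptor Csf1r and the surface protein Adgre1. The 10 genes described here are Csf1r, Adgre1, Itgam, Cd68, Lyz2, Lyz1, C1qa, Fcgr1, Mrc1 and Cd163. They were chosen by symbol, with earlier results of these data known. Each was read by every probe set that the platform annotation assigns to 1 gene alone. All 10 were measured, by 15 of the 45037 probe sets on the array, among 18193 genes with such a probe set.

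The study asked how gene expression in adult mouse epidermis differs after Alox12b is switched off. Alox12b encodes a lipoxygenase that oxidises the linoleate-bearing ceramides of the skin barrier. The inactivated group was 5 mice with homozygous LoxP-flanked Alox12b and 1 Cre-ERT2 transgene under the keratin 14 promoter (Alox12bfl/fl/K14Cre, genotype p/p +/Cre), which makes the recombinase in keratinocytes and not in macrophages. The controls were 4 floxed littermates with no Cre (Alox12bfl/fl, p/p +/+). Every mouse was on the hairless SKH1 background after 5 generations of backcrossing and had 3 intraperitoneal tamoxifen injections of 1 mg in sunflower seed oil at 8 weeks of age. Epidermis was scratched from frozen skin 6 days later, and total RNA of each mouse was hybridised to 1 Affymetrix mouse 3' expression array. No control carried Cre, so effects of Cre activity and of Alox12b loss cannot be told apart.

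Values are log2 probe set values as deposited. Array medians lay between 4.34 and 4.42, and 75th percentiles between 6.53 and 6.68. Differences are inactivated minus control ± SE from limma, over 5 and 4 arrays, and adjusted p is the Benjamini-Hochberg value across the whole array, called at 0.05. "Not overlapping" means that the ranges of the 2 groups were fully apart. A 2-sided exact permutation test over the 126 splits of the arrays can give no p below 0.00794. The number of arrays limits the precision. In RNA of scratched epidermis, fewer cells of a type and less RNA per cell cannot be told apart. The samples were keratinocyte-rich, with a mean over 13 keratinocyte markers of 10.61 to 10.76 in the inactivated group and 11.42 to 11.54 in the controls. Most of that gap came from Krt2 and Krt15, which differed by -7.05 and -3.22, and the median difference over the 13 was -0.17. The samples also held dermal transcripts, since 17 fibroblast markers averaged 8.18 to 8.80 and 9.20 to 9.67.

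Lyz1 and Lyz2 are neighbouring lysozyme genes, and the 250 bases before their transcription starts are shown first (RefSeq, GRCm38.p6, both on the minus strand, Lyz1 at chr10:117292869-117293118 and Lyz2 at chr10:117282273-117282522). Capitals mark bases that differ or have no partner in a global alignment of the pair.
Lyz1: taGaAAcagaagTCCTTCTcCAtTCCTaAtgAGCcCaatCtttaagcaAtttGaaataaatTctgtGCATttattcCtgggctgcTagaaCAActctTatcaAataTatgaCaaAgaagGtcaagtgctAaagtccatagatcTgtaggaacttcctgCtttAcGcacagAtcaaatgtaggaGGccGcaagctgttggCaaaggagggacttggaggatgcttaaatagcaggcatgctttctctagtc
Lyz2: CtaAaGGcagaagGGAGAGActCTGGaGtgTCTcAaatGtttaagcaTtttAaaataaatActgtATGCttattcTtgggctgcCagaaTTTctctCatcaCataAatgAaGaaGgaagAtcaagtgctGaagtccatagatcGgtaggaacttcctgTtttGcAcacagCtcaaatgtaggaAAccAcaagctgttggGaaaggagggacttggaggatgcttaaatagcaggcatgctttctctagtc
Of 248 aligned bases 200 were identical (80.6%), and the last 50 bases before the start were the same in both. The genes are thus alike upstream of the start. Bases before the start are outside the transcript and do not tell whether probe sets of the pair cross-react. The probe sequences were not used here, so cross-reaction between the pair was not tested and their probe sets are not taken as independent readings.

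Windows of the same kind were found for 7 of the 10 genes, and a pair of others is shown because one belongs to a gene that fell and the other to a gene that did not pass. Capitals here mark GAGGAA, or TTCCTC where it lies on the other strand, the purine-rich core bound by PU.1 (the product of Spi1), a factor that macrophage promoters often carry.
Cd68: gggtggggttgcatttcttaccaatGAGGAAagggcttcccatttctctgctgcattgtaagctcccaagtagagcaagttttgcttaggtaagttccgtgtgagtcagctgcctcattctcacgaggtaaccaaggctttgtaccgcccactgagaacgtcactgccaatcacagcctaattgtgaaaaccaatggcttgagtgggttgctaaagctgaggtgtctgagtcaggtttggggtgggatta
Mrc1: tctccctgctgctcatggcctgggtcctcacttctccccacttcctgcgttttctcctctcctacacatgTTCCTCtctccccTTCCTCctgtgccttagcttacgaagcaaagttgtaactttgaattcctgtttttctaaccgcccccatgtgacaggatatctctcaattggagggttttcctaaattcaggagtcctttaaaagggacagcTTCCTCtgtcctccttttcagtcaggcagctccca
The Cd68 window (chr11:69666171-69666420, minus strand) held the motif 1 time and the Mrc1 window (chr2:14229164-14229413, plus strand) 3 times. The motif was also in the windows of Itgam and Fcgr1, and these letters were not in those of Lyz1, Lyz2 and Cd163. It occurred in 23.3% of all 32851 windows of this length, on either strand. A second purine-rich run, AGGAAG, read as CTTCCT where it lies on the other strand, can overlap the first and is not capitalised here. It occurred 3 times in Mrc1, 2 times in Fcgr1 and in Lyz2, and 1 time in Itgam and in Lyz1, was not in the Cd68 and Cd163 windows, and was in 29.5% of all windows. These matches are descriptions of letters and not of binding.

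Epidermis of the inactivated group had lower levels of most of the macrophage genes. The growth factor receptor Csf1r, the surface protein Adgre1, the lysosomal glycoprotein Cd68, both lysozymes and the complement subunit C1qa were 1.42- to 1.92-fold lower on the probe set with the highest mean. Mrc1, Cd163 and Itgam did not pass, and 1 probe set of the Fc receptor Fcgr1 was 1.28-fold higher. Of the 15 probe sets, 10 were lower, 1 was higher and 4 did not pass, where 16.0% of all probe sets were lower and 12.7% higher (28.6% in either direction). Counted by gene, 6 of 10 were lower and 1 higher, against 18.9% and 15.5% of all 18193 genes (34.4% in either direction). Whether the bright Lyz1 readings come from Lyz2 transcripts was not tested. These counts may therefore hold 1 lysozyme signal more than 1 time. The median difference over the 10 genes was -0.54, and over all named genes 0.03. The same 10 and 1 probe sets were those whose groups did not overlap, which held for 25.7% of all probe sets, 14.3% with the inactivated group lower. By gene these shares were 31.6% and 17.6%. Because the genes were chosen with earlier results of these data known, an excess over these shares is no independent evidence.

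**Figure D1:**
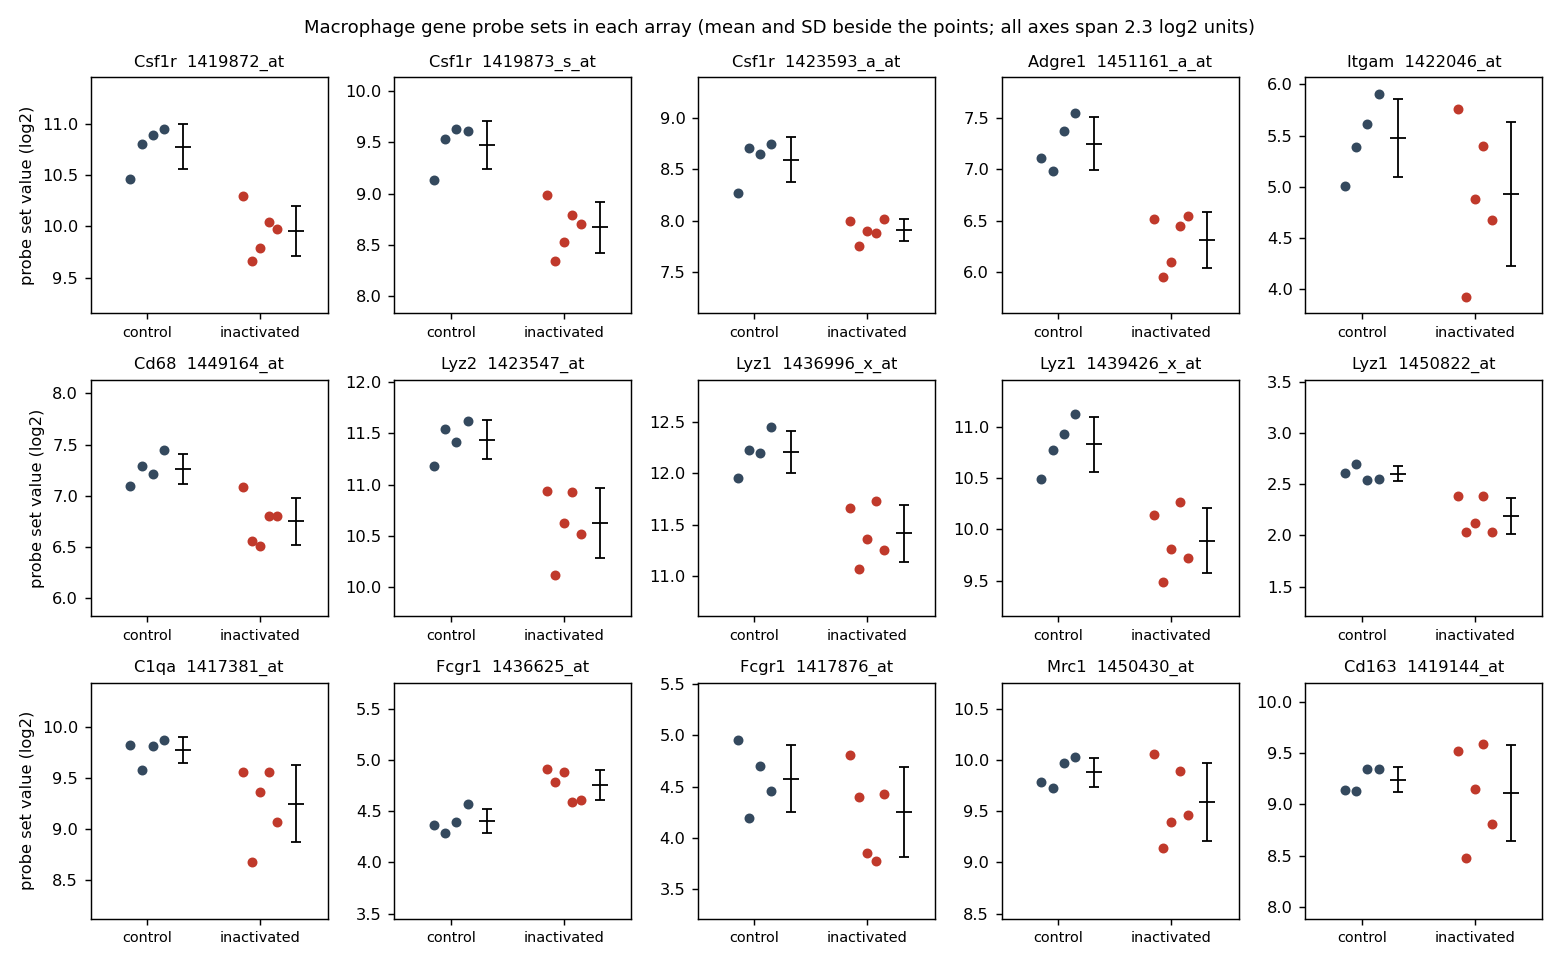
Log2 values of the 15 probe sets in each array (y axis, 2.3 log2 units in every panel), with controls on the left and the inactivated group on the right of each panel; bars give mean and SD over 4 and 5 arrays. The groups do not overlap in 11 panels, and in the Itgam, Mrc1, Cd163 and second Fcgr1 panels the ranges of the groups overlap.

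Csf1r is the receptor for the growth factors Csf1 and Il34, on which macrophages and Langerhans cells depend. Its probe set 1419872_at read 10.30, 9.66, 9.79, 10.04 and 9.97 in inactivated replicates 1 to 5, and 10.46, 10.80, 10.89 and 10.95 in control replicates 1 to 4. Inactivated replicate 1 was the highest of its group and control replicate 1 the lowest of its own, with a narrow gap between them. The group difference was -0.82 ± 0.14 (adjusted p = 0.00153; exact permutation p = 0.00794), or 1.77-fold lower. Probe set 1419873_s_at differed by -0.81 ± 0.14 (adjusted p = 0.00201) and 1423593_a_at by -0.69 ± 0.11 (adjusted p = 0.000905). On the latter the inactivated arrays read 7.75 to 8.02 and the controls 8.27 to 8.75. All 3 readings of Csf1r therefore fell without overlap, and the changes of the 3 probe sets did not differ from each other beyond their spread (exact permutation p = 0.183 to 0.476 for the 3 pairs).

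Adgre1, an adhesion receptor, is a classic label of mouse macrophages and is also carried by Langerhans cells. It read 6.52, 5.95, 6.10, 6.45 and 6.55 in the inactivated replicates and 7.11, 6.98, 7.37 and 7.55 in the controls. Its fall of 0.94 ± 0.16 (1.92-fold lower; adjusted p = 0.00131) was the largest of the 10 genes on the probe set with the highest mean. Itgam, the integrin chain CD11b that pairs with Itgb2 and is also abundant on neutrophils and monocytes, read 5.76, 3.93, 4.88, 5.40 and 4.68 against 5.01, 5.39, 5.61 and 5.91. Inactivated replicate 1 lay inside the control range and replicate 2 more than 1 log2 unit below it. Itgam thus differed by -0.55 ± 0.33 with a 95% interval of -1.27 to 0.17 (adjusted p = 0.232).

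Cd68 lines the membranes of endosomes and lysosomes in phagocytes. It read 7.09, 6.56, 6.51, 6.80 and 6.80 in the inactivated group and 7.10, 7.29, 7.21 and 7.45 in the controls, so that only a gap of about 0.01 kept the groups apart. Its difference was -0.51 ± 0.12 (1.42-fold lower; adjusted p = 0.0103).

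Lyz2 encodes the lysozyme of macrophages and neutrophils, an enzyme that breaks bacterial cell walls. It read 10.94, 10.12, 10.63, 10.93 and 10.52 in the inactivated replicates and 11.18, 11.54, 11.42 and 11.62 in the controls. The difference was -0.81 ± 0.17 (1.76-fold lower; adjusted p = 0.00426). Its close copy Lyz1 is best known from Paneth cells of the gut. Lyz1 probe set 1436996_x_at read 11.66, 11.07, 11.36, 11.73 and 11.25 against 11.95, 12.23, 12.20 and 12.45, a difference of -0.79 ± 0.15 (adjusted p = 0.00255). Probe set 1439426_x_at differed by -0.94 ± 0.17 (adjusted p = 0.00229), and its inactivated arrays read 9.49 to 10.27 against 10.49 to 11.12. The suffix _x marks probe sets with probes that can match other transcripts. The Lyz1 probe set without that suffix, 1450822_at, read only 2.03 to 2.38 and 2.54 to 2.70, below the 25th percentile of the array on 8 of 9 arrays. It differed by -0.41 ± 0.10 (adjusted p = 0.00882). The change of 1436996_x_at was within the spread of the change of Lyz2 (difference of changes 0.02, exact permutation p = 0.786). For 1439426_x_at that difference was -0.13 (exact permutation p = 0.143). The fall of 1450822_at was smaller than that of Lyz2 by 0.40 (exact permutation p = 0.00794). It was also smaller than those of 1436996_x_at and 1439426_x_at, by 0.38 and 0.53 (exact permutation p = 0.0159 for each). The changes of the bright Lyz1 probe sets differed from each other by 0.15 (exact permutation p = 0.00794). Whether the bright Lyz1 readings come from Lyz1 or from Lyz2 transcripts was not tested.

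C1qa encodes a chain of C1q, the first component of the classical complement pathway, made in skin largely by macrophages. It read 9.56, 8.68, 9.36, 9.56 and 9.07 in the inactivated group and 9.82, 9.58, 9.81 and 9.87 in the controls. Inactivated replicates 1 and 4 lay just below the lowest control. The difference of -0.52 ± 0.17 (1.44-fold lower; adjusted p = 0.0418) passed narrowly. The call was lost without control replicate 1 (adjusted p = 0.0908), control replicate 2 (0.0524), control replicate 3 (0.0953), control replicate 4 (0.105), inactivated replicate 3 (0.0549) or inactivated replicate 5 (0.0777), and with cyclic loess normalisation (0.0543).

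Fcgr1 is the high-affinity receptor for immunoglobulin G. Its probe set 1436625_at read 4.91, 4.78, 4.88, 4.59 and 4.61 in the inactivated group against 4.36, 4.29, 4.39 and 4.57, a rise of 0.35 ± 0.09 (adjusted p = 0.016, and 0.0526 without control replicate 2). Probe set 1417876_at read 4.81, 4.40, 3.85, 3.77 and 4.43 against 4.95, 4.19, 4.70 and 4.46 and differed by -0.32 ± 0.22 (adjusted p = 0.304). Both readings lay near the array medians, the groups of the second overlapped, and the changes of the pair differed by 0.67 (exact permutation p = 0.0556). The direction for Fcgr1 thus depends on the probe set.

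Mrc1, the mannose receptor CD206, and Cd163, the receptor for haemoglobin bound to haptoglobin, mark resident tissue macrophages. Mrc1 read 10.06, 9.14, 9.39, 9.89 and 9.46 in the inactivated replicates and 9.78, 9.73, 9.97 and 10.03 in the controls. It differed by -0.29 ± 0.17 (95% interval -0.68 to 0.09; adjusted p = 0.237), with inactivated replicate 1 above every control. Cd163 read 9.52, 8.48, 9.15, 9.59 and 8.81 against 9.14, 9.13, 9.35 and 9.35. Inactivated replicates 1 and 4 were above all controls and replicates 2 and 5 below them. Its difference of -0.13 ± 0.21 (95% interval -0.59 to 0.32; adjusted p = 0.661) turned to 0.02 without inactivated replicate 2. The intervals of both genes still include falls of the size seen for Cd68.

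**Figure D2:**
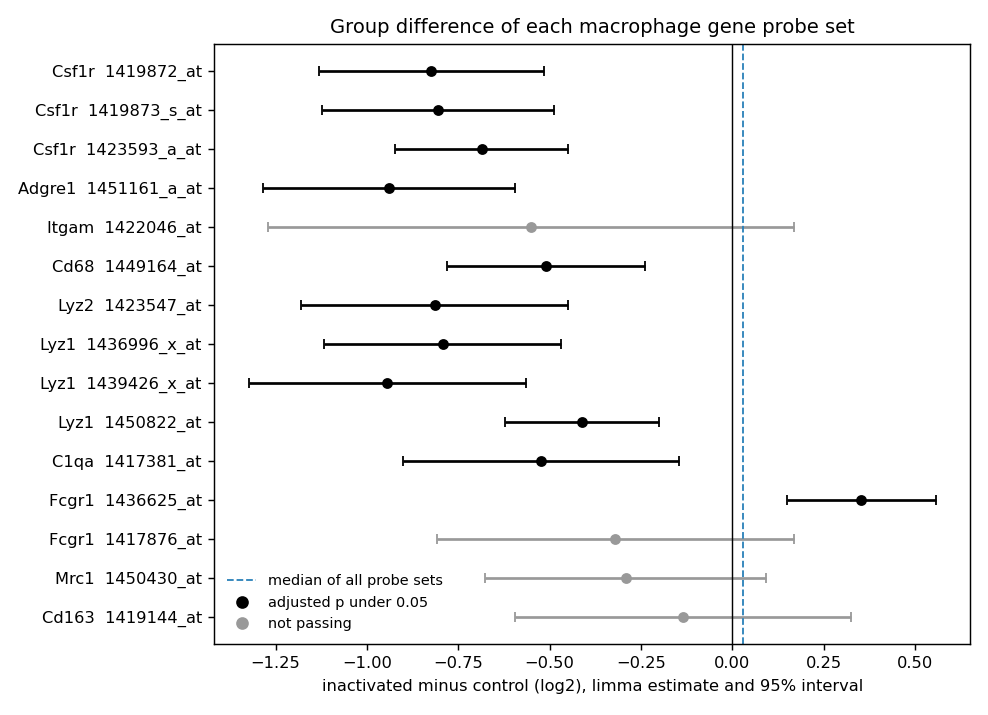
Inactivated minus control for each probe set (x axis, log2, limma estimate with 95% interval); black points passed at adjusted p 0.05, grey points did not, and the dashed line is the median of all probe sets, 0.03. The 10 lower probe sets lie between -0.94 and -0.41, and Cd163 lies closest to 0.

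To set the changes of the 10 genes beside each other, the log2 ratio of each pair within an array was compared between the groups (45 pairs, exact permutation test, adjusted over the pairs). These ratios come from the same values as the differences above and are no separate evidence. In 15 pairs the ratio differed at adjusted p 0.05. Csf1r fell by 0.53 relative to Mrc1, with a log2 ratio of 0.36 ± 0.17 (SD, n = 5) against 0.90 ± 0.16 (SD, n = 4; exact p = 0.00794, adjusted 0.0298). Lyz2 fell by 0.52 relative to Mrc1 and by 0.68 relative to Cd163 (exact p = 0.00794, adjusted 0.0298 for each). Adgre1 fell by 0.65 relative to Mrc1 and by 0.81 relative to Cd163 (exact p = 0.0159, adjusted 0.0476 for each), and C1qa fell by 0.39 relative to Cd163 (exact p = 0.00794, adjusted 0.0298). Csf1r also fell by 0.31 relative to Cd68 (exact p = 0.00794, adjusted 0.0298). Of the other pairs that passed, 6 involved Fcgr1, by its probe set 1436625_at, and the remaining 2 were Lyz1 with Mrc1 and with Cd163. Csf1r against Cd163 did not pass (-0.69; exact p = 0.0238, adjusted 0.0595), nor did C1qa against Mrc1 (-0.23; exact p = 0.0635, adjusted 0.119) or Cd68 against Mrc1 and Cd163 (-0.22 and -0.38; exact p = 0.127, adjusted 0.19 for each). None of the 9 pairs with Itgam passed. A ratio shows unequal change and not that Mrc1 or Cd163 kept its level.

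The macrophage genes also differed among the inactivated mice. On replicate 2 the median over the 10 genes was 1.10 below the control mean, and this array was the lowest of its group for 8 of the 10 genes. Replicate 1, with a median of -0.19, was the highest for 7 and the lowest for none. Replicates 3, 4 and 5 had medians of -0.68, -0.34 and -0.70. The controls spanned only -0.15 to 0.18, and control replicate 4 was the highest control for all 10 genes. Without inactivated replicate 2, 10 probe sets were still lower and 1 higher.

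**Figure D3:**
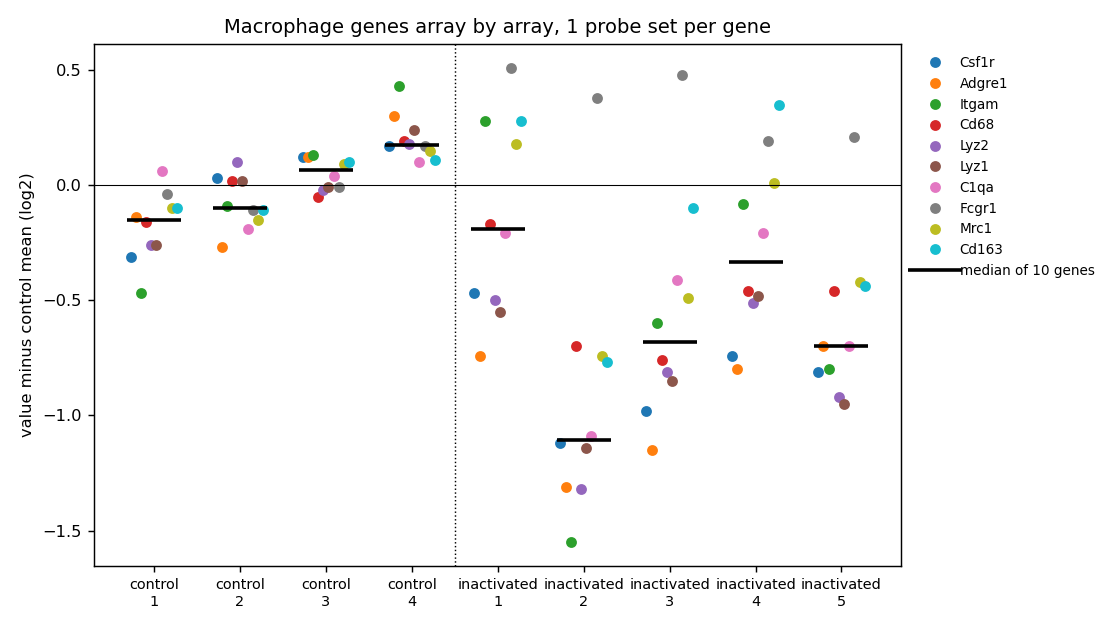
Value minus the control mean (y axis, log2) for 1 probe set per gene in each of the 9 arrays (x axis), with a black bar at the median of the 10 genes. The controls lie close to 0, inactivated replicate 2 is lowest with a median of -1.10 and replicate 1 nearest the controls with -0.19, and Fcgr1 lies above 0 in all 5 inactivated arrays.

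The labels do not give the sex of the mice. Xist and Y-linked probe sets divided the inactivated group into 3 females and 2 males and the controls into 1 female and 3 males. Inactivated replicates 1 and 2, which bracket the group, were both read as male. Within males Csf1r (1419872_at) differed by -0.90, Adgre1 by -1.07, Lyz2 by -0.999 and C1qa by -0.63, and within females by -0.53, -0.74, -0.49 and -0.50. Itgam differed by -0.79 within males and by -0.03 within females. The sign was not the same in both sexes for Cd163 (-0.28 in males, 0.04 in females) and Fcgr1 1417876_at (0.16 and -0.93). It was the same for the other macrophage probe sets. The females include a single control, which was the lowest control for Csf1r and Lyz2. With sex as a covariate the counts of 10 lower and 1 higher probe sets were the same.

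Both ligands of Csf1r were lower too. Il34, the Csf1r ligand made by keratinocytes that maintains Langerhans cells, read 5.65, 5.61, 5.72, 5.45 and 5.83 in the inactivated group and 7.32, 7.06, 7.04 and 7.08 in the controls. It fell by 1.48 ± 0.09 (2.78-fold lower; adjusted p = 4.26e-06), with no array of one group near the other. The second ligand Csf1 read 7.42, 6.49, 6.70, 6.73 and 7.06 against 7.47, 7.34, 7.68 and 7.57. It fell by 0.63 ± 0.17 (adjusted p = 0.0171, and 0.0557 without control replicate 3), with inactivated replicate 1 inside the control range. Csf1 had 3 other probe sets, and 2 in all were lower. Spi1, the transcription factor PU.1 that specifies macrophages, fell by 0.60 ± 0.13 (adjusted p = 0.00643) and Maf, a factor of mature macrophages, by 0.51 ± 0.09 (adjusted p = 0.00195). Trem2, a lipid-sensing receptor, fell by 0.39 ± 0.10 (adjusted p = 0.0131). Csf2, the growth factor GM-CSF, rose by 0.62 ± 0.11 (adjusted p = 0.00213), at low values of 3.23 ± 0.15 (SD, n = 5) against 2.61 ± 0.21 (SD, n = 4). Of the 14 measured growth factors, receptors and transcription factors, Csf1r included, 7 were lower, 4 higher and 3 did not pass. The 4 became 2 without any one of the controls or without inactivated replicate 4. For this list and those below, the shares of all named genes were 18.9% lower and 15.5% higher. Besides Csf2, the higher genes of this list were Cebpb, Csf2rb and Csf2rb2. They rose by 0.40 ± 0.09, 0.71 ± 0.22 and 0.69 ± 0.22 (adjusted p = 0.00664, 0.0323 and 0.0385). Their means were 11.34, 9.09 and 7.26 in the inactivated group and 10.95, 8.38 and 6.57 in the controls. Whether the probe sets of Csf2rb and Csf2rb2 read separate transcripts was not tested. Csf1, Spi1 and Trem2 were chosen for their roles after their values were seen, and Cebpb, Csf2rb and Csf2rb2 to complete the higher genes.

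**Figure D4:**
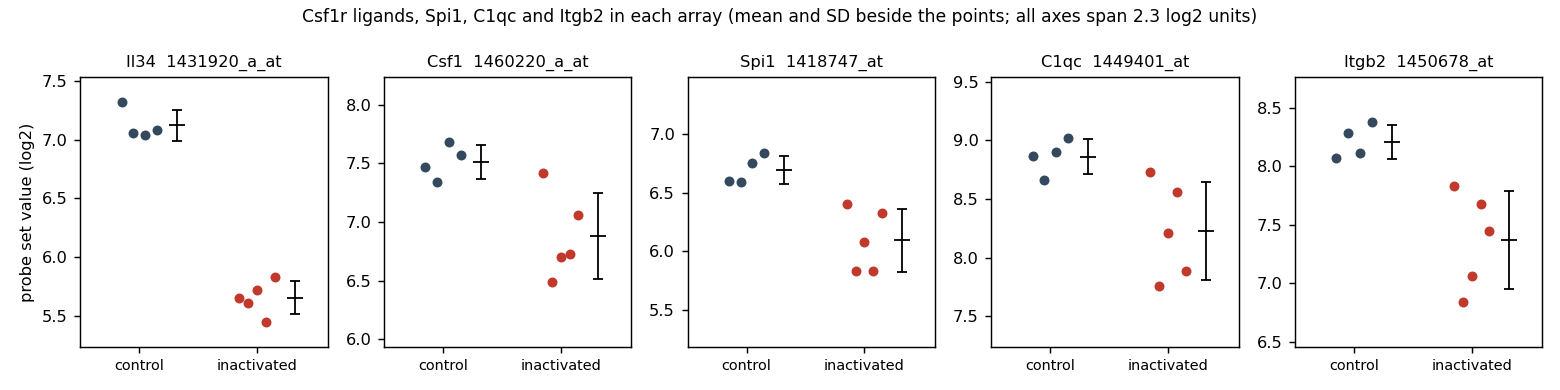
Log2 values of Il34, Csf1, Spi1, C1qc and Itgb2 in each array (y axis, 2.3 log2 units in every panel), controls left and inactivated group right, with mean and SD. Il34 stands 2.78-fold lower in the inactivated group, while for Csf1 and C1qc inactivated replicate 1 lies among the controls.

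Complement genes had a median difference of -0.47. C1qc, another chain of C1q, read 8.73, 7.76, 8.21, 8.56 and 7.89 against 8.87, 8.66, 8.90 and 9.02. It fell by 0.63 ± 0.19 (adjusted p = 0.0286), a call lost without control replicate 1, 3 or 4 (adjusted p = 0.0615, 0.0698 and 0.0827), without inactivated replicate 2, 3 or 5 (0.0522, 0.0512 and 0.0553) and with sex as a covariate (0.0512). The remaining chain C1qb, chosen after its value was seen, differed by -0.47 ± 0.20 (adjusted p = 0.101). Itgb2, the partner chain of Itgam on leukocytes, fell by 0.84 ± 0.19 (1.79-fold lower; adjusted p = 0.00739), without overlap. In the list of 11 complement genes, C1qa and Itgam included, 3 were lower, 1 higher and 7 did not pass. The lower count was 7 without inactivated replicate 1 and 1 without control replicate 1, 3 or 4 or inactivated replicate 3 or 5. The higher gene was not called without control replicate 2, 3 or 4 or inactivated replicate 1, 2 or 4.

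Among 8 Fc gamma receptors and their signalling proteins, 2 were lower, 3 higher and 3 did not pass. Fcgr2b, the inhibitory receptor, rose by 0.54 ± 0.17 (adjusted p = 0.037). That call was lost without control replicate 1, 2 or 3 (adjusted p = 0.0958, 0.0996 and 0.0827) or inactivated replicate 4 (0.0767). Ptpn6, a phosphatase that restrains leukocyte receptors, fell by 0.45 ± 0.13 (adjusted p = 0.0217, and 0.0712 without control replicate 4). The higher count was 1 without control replicate 1, 2 or 3. The lower count was 0 without control replicate 4, 2 without inactivated replicate 1 and 1 without any other single array.

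Genes of resident macrophages and scavenging fell in 7 of 22 measured cases, rose in 1 and did not pass in 14. Igf1 fell by 1.35 ± 0.15 (2.55-fold lower; adjusted p = 0.000108), Selenop, a selenium carrier, by 0.89 ± 0.14 (adjusted p = 0.000929) and Gas6, a bridge between dying cells and phagocyte receptors, by 0.89 ± 0.15 (adjusted p = 0.0015). The folate receptor Folr2 and the transglutaminase F13a1, named after their values were seen, differed by -1.16 ± 0.22 and -0.88 ± 0.17 (adjusted p = 0.00309 and 0.00337). Lyve1, a hyaluronan receptor of lymphatic vessels and some macrophages, rose by 1.99 ± 0.24 (3.97-fold higher; adjusted p = 0.000205). Fibroblasts also express Igf1 and Gas6. The higher count was 2 without inactivated replicate 5.

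Lysosome and phagosome genes were lower in 11 of 21 cases, including Cd68 and both lysozymes, and higher in 2, with 8 not passing. Hexa, a lysosomal hexosaminidase, fell by 0.99 ± 0.17 (adjusted p = 0.00159) and the membrane protein Lamp2 by 0.40 ± 0.07 (adjusted p = 0.00201). The cathepsins Ctsl and Ctsd, which keratinocytes also make, rose by 0.58 ± 0.07 and 0.64 ± 0.08 (adjusted p = 0.000143 and 0.000214). The lower count was 7 without control replicate 4. Together, the 84 other genes of the 6 macrophage pathway lists had 26 lower (31.0%) and 13 higher (15.5%), beside 18.9% and 15.5% of all named genes, so that the higher share was that of the background. Their median was -0.18 against 0.03 for all named genes. Without control replicate 4 the lower count was 17, and without control replicate 3 the higher count was 8.

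Of 17 inflammatory mediators of macrophages 3 were higher, 1 lower and 13 did not pass, with a median of 0.29. The share higher was near the 15.5% of all named genes, and the share lower was below their 18.9%. Arg1, an arginase of repair macrophages that keratinocytes also make, read 8.42, 8.37, 8.85, 8.71 and 7.80 against 5.52, 6.32, 5.78 and 5.93, a rise of 2.54 ± 0.21 (5.83-fold; adjusted p = 2.02e-05). Il1b rose by 1.37 ± 0.22 (adjusted p = 0.00124) and the costimulatory ligand Cd80 by 0.52 ± 0.09 (adjusted p = 0.00148), while the chemokine Ccl8 fell by 1.27 ± 0.18 (adjusted p = 0.000548). Cd80 read low, at 3.56 ± 0.14 (SD, n = 5) against 3.04 ± 0.11 (SD, n = 4). It had 3 other probe sets, and 2 in all were higher. The higher count was 5 without inactivated replicate 5. Of 12 monocyte genes, 2 were higher, 2 lower and 8 did not pass, near the 15.5% higher and 18.9% lower of all named genes. Chil3, a chitinase-like protein, rose by 2.17 ± 0.31 (4.49-fold; adjusted p = 0.000596), the chemokine Ccl6 by 1.04 ± 0.25 (adjusted p = 0.0116), and the matrix proteoglycan Vcan fell by 1.03 ± 0.21 (adjusted p = 0.00417). Vcan had 7 other probe sets, and 3 in all were lower. The lower monocyte count was 1 without control replicate 2, 3 or 4.

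**Figure D5:**
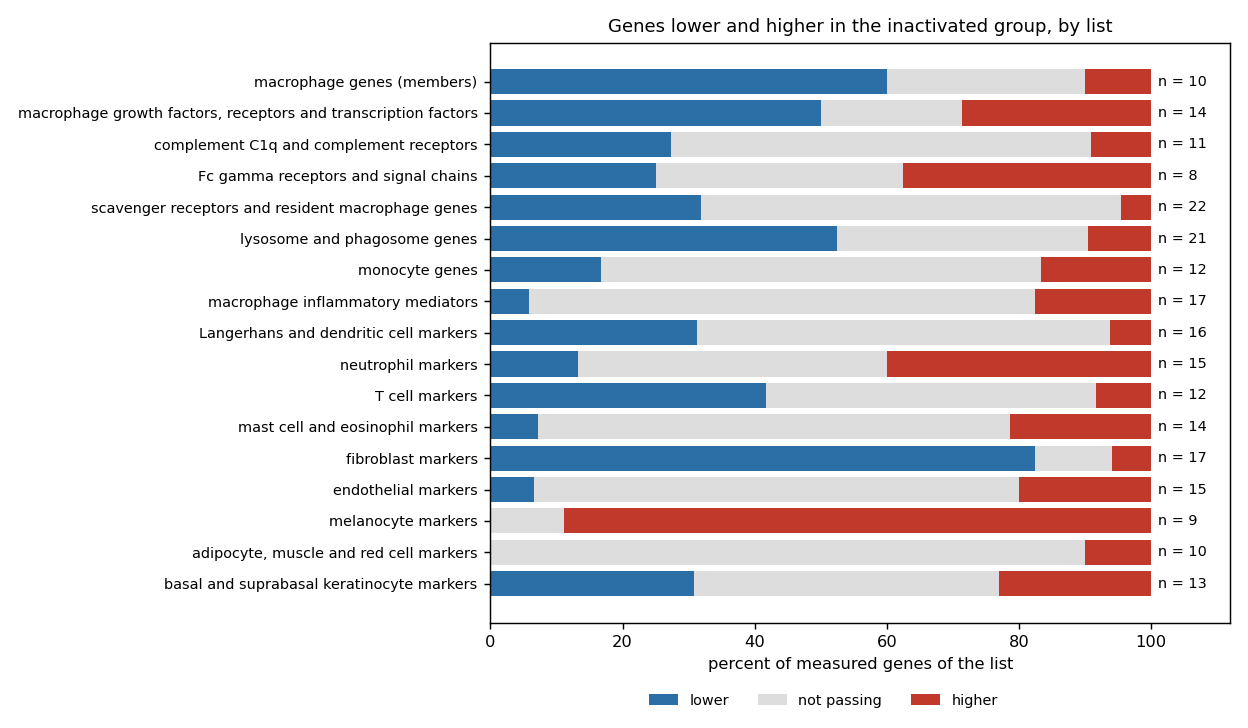
Share of the measured genes of each list (x axis, percent) that were lower, not passing or higher in the inactivated group, with the number measured at the right; some genes are in more than 1 list. Lower shares are largest for the fibroblast markers, 14 of 17, and the 10 macrophage genes, 6 of 10, and melanocyte markers were higher in 8 of 9. Of all named genes 18.9% were lower and 15.5% higher.

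Markers of other cell types moved beside these genes, where 18.9% of all named genes were lower and 15.5% higher. Fibroblast markers were lower in 14 of 17 cases with a median of -0.99, among them Thbs2 with -1.69 ± 0.20 and Postn with -1.94 ± 0.25 (adjusted p = 0.000174 and 0.000264). On the inactivated arrays the fibroblast median was -1.35 to -0.63 from the control mean, lowest on replicate 2 and nearest to the controls on replicate 1, as for the macrophage genes. The controls ranged from -0.31 to 0.14. The part of a changed dermal share in the fall of the macrophage genes was not tested. Of 15 endothelial markers 3 were higher (Lyve1, Emcn and Pdpn, by 1.99, 0.61 and 0.50), 1 was lower (Vwf, with -0.66) and 11 did not pass, with a median of 0.08. The higher count was 1 without control replicate 1, and the lower count was 0 without control replicate 2, 3 or 4 and 2 without inactivated replicate 4.

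Melanocyte markers were higher in 8 of 9. Their median from the control mean was 0.51, 1.78, 1.69, 0.69 and 0.59 on inactivated replicates 1 to 5, highest on replicates 2 and 3. Adipocyte, muscle and red cell markers stood at 2.81 on inactivated replicate 4 and between 0.04 and 0.23 on the other inactivated arrays. Without inactivated replicate 4 the macrophage probe sets still numbered 10 lower and 1 higher. The part of the melanocyte markers in the macrophage values was not tested.

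The Langerhans cell lectin Cd207 fell by 0.98 ± 0.24 (1.97-fold lower; adjusted p = 0.0107) and Id2, a regulator of Langerhans cell development, by 0.58 ± 0.14 (adjusted p = 0.0119). Ccr7, the receptor that guides dendritic cells out of skin, rose by 1.38 ± 0.23 (adjusted p = 0.00152). Of 16 Langerhans and dendritic cell markers 5 were lower, 1 higher and 10 did not pass, beside 18.9% lower and 15.5% higher of all named genes. The lower count was 3 without control replicate 1 and 2 without control replicate 2, 3 or 4 or inactivated replicate 2, 3 or 4. Their median was -0.38 to 0.09 on the inactivated arrays and -0.07 to 0.11 on the controls. Markers of T cells were lower in 5 of 12 and higher in 1, with a median of -0.19. Neutrophil markers were higher in 6 of 15 and lower in 2. S100a8, S100a9 and Lcn2, which keratinocytes also make, rose by 3.40, 4.54 and 4.09 (adjusted p = 4.98e-07, 7.15e-08 and 9.83e-06). The collagenase Mmp8 and the granule protein Ltf rose by 1.46 ± 0.30 and 0.57 ± 0.17 (adjusted p = 0.00434 and 0.0246). The chemokine receptor Cxcr2 rose by 0.34 ± 0.11 (adjusted p = 0.0459). The calls of Ltf and Cxcr2 were lost in 3 and 6 of the 9 fits that left out 1 array. The 2 lower genes were the peroxidase Mpo, with -1.41 ± 0.33, and the gelatinase Mmp9, with -1.90 ± 0.10 (adjusted p = 0.00974 and 1.69e-06). The other 7, among them Csf3r, Elane, Camp and Ngp, did not pass. The part of these cell types in the values of Csf1r, Adgre1, Itgam and Lyz2, which they share with macrophages, was not tested.

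The genes most like each macrophage gene were sought by the root mean square difference of log2 values over the 9 arrays, after each gene's own mean was taken away. Tcf4 and Man1c1 were nearest to Csf1r (0.066 and 0.070), Pkd1 and Cbr2 to Adgre1 (0.114 and 0.118) and Tor1aip1 and Ncf4 to Cd68 (0.054 and 0.074). Selenop and the fibroblast proteoglycan Dcn were nearest to Lyz2 (0.081 for each), Rtn2 and Selenop to Lyz1 (0.083 and 0.085) and Psen2 and C1qc to C1qa (0.115 and 0.116). Npc1l1 and Ube2v1 were nearest to Fcgr1 (0.057 and 0.066). Of these, only Psen2 did not pass itself, with -0.45 (adjusted p = 0.0663). The Ncf4 call was lost in 10 of 19 alternatives, among them those without any one of the controls or without inactivated replicate 2 or 3 (adjusted p = 0.0507 to 0.0805).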

How the data were processed

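Epidermal RNA of 9 mice was read on 9 arrays, 5 inactivated and 4 control, grouped by the labels' titles. The deposited table holds a log2 value for each of 45037 probe sets on every array. Per the submitters' processing notes the authors used affy; its version, the normalisation and the log base are not stated. Maxima of 13.47 to 13.53 lie above 11.1, the ceiling a 16-bit scan would have in natural logs, so the values were read as log2. The labels call the mice biological replicates.

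Names came from the platform annotation (34945 with 1 symbol, 932 with several, 9160 not listed). A gene with several probe sets was represented by the one with the highest mean over all arrays, and for the 10 macrophage genes all probe sets are given. Other named genes are given by that probe set alone, and not all of their probe sets passed. Trem2 and Gas6 each had 1 other probe set and 1 lower in all. Lamp2 had 3 others and 2 lower in all, and Fcgr2b had 4 others and 3 higher in all. Maf had 5 others and 5 lower in all, and Id2 had 2 others and 2 lower in all. Ctsl and Fgr each had 1 other and 1 higher in all, and Cd80 had 3 others and 2 higher in all. Groups were compared with limma 3.58.1 (lmFit and eBayes, 2-sided, no covariate, R 4.3.3, 7 residual degrees of freedom) over all probe sets, with Benjamini-Hochberg adjustment, and single ratios by an exact permutation test over 126 splits. The fit was tested on simulated arrays. Named genes are the 10 macrophage genes, up to 4 passing genes with the lowest adjusted p in each list (some are not printed), defining markers of cell types, and the 2 most alike genes of each macrophage gene that passed; exceptions are named as such. The members and lists were chosen with earlier results of these data known. Alternatives were other normalisations, filters, variance models, covariates, a stricter threshold and leaving out arrays. The labels do not say whether replicate numbers pair arrays, and the main fit used no pairing. Deviations from group means of same-numbered arrays correlated at -0.268, 0.007, -0.094 and 0.078. So few pairs cannot exclude a pairing. Promoter windows are from RefSeq (GRCm38.p6).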

Additional observations from a re-analysis of the deposited data

How the results depend on the processing

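The 10 lower and 1 higher macrophage probe sets were 8 to 10 and 0 to 1 under the alternatives other than the removal of marked probe sets. Leaving out single arrays gave 9 to 10 lower and 0 to 1 higher, with 0 without control replicate 2. At a threshold of adjusted p 0.01, 8 were lower and 0 higher. Without probe sets whose names carry _x, _s or _a, 5 of the remaining 10 were lower, among them the dim Lyz1 1450822_at. The shares of all probe sets given above are those of the main fit, and shares under the alternatives are not given here. Among the 84 other macrophage pathway genes, 26 lower and 13 higher became 15 and 8 of the 62 that remained under that removal and 14 and 8 at adjusted p 0.01. They were 17 to 34 and 8 to 15 when single arrays were left out. With the replicate number as a block (replicate block), 10 and 1 macrophage probe sets and 22 and 13 pathway genes passed. The Cd163 difference ranged from -0.256 to 0.024 when single arrays were left out, and reversed only without inactivated replicate 2. The cause of these shifts was not tested, beyond fewer probe sets or a stricter threshold where the setting itself sets them. Subtracting array medians moved the median difference of all probe sets from 0.030 to 0.074, cyclic loess to 0.007 and quantile normalisation to 0.015, and none of the 3 turned the sign of a macrophage probe set. With 9 arrays, intervals of Mrc1, Cd163 and Itgam span both signs, and Lyz1 1450822_at lies below the 25th percentile on 8 of 9 arrays.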
